A study of Mus musculus with 6 samples.

Results

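The proteasome exists in a constitutive and an inducible form, and the genes of both were followed here in haematopoietic stem cells (HSCs) that carry or lack *Maea*. Rows were taken by gene symbol from the deposited table. The 10 members were 5 inducible genes (*Psmb8*, *Psmb9*, *Psmb10*, *Psme1* and *Psme2*) and 5 constitutive genes (*Psmb5*, *Psmb6*, *Psmb7*, *Psme3* and *Psme4*), of 46959 rows in all. Levels are in CPM, reads of a gene scaled to a common library total. Each member passed the filter on low values, at least 3 libraries at or above a CPM of 1, as did 12955 genes in total.

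HSCs (CD150+ CD48- lineage- Sca-1+ c-kit+) were sorted from adult mouse bone marrow, with about 2000 cells from a pair of mice in each of 3 control and 3 MaeaCsf1r-Cre libraries. In MaeaCsf1r-Cre mice the floxed *Maea* gene, which codes for a RING domain subunit of an E3 ubiquitin ligase, is cut by a Cre that the *Csf1r* promoter drives, so that macrophages lose it as well as HSCs. The *Csf1r*-iCre line had been backcrossed onto C57BL/6, the controls were littermates whose exact alleles the labels do not give, and the series' design text gives an age of 8 weeks. The comparison asks how the transcriptome of HSCs differs without *Maea*, and the paper reported a proteasome gene set as enriched in MaeaCsf1r-Cre HSCs. It followed the proteasome further with an inhibitor, given to mice that lost *Maea* through another Cre (*Mx1*-Cre). In those mice the inhibitor did not restore HSC numbers.

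Proteins tagged with ubiquitin are degraded in the 20S core of the proteasome, a barrel whose inner rings each hold the catalytic subunits beta1, beta2 and beta5. In immune cells, and in other cells that meet interferon, newly made cores take up beta1i, beta2i and beta5i in their place, and the resulting immunoproteasome cuts many of the peptides that class I molecules display. Activators cap the core. PA28 alpha and beta form an inducible ring in the cytoplasm, PA28 gamma a nuclear ring, and PA200 a single-chain nuclear cap.

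Promoter sequences from RefSeq (GRCm38.p6, 250 bases before to 50 bases after a gene's start) were matched for 9 of the 10 members, all but *Psmb7*, and searched on both strands for 3 motifs. The interferon-gamma motif GAS was written TTCNNNGAA, the interferon-stimulated element ISRE was written GAAANNGAAA, and the antioxidant element ARE, to which the transcription factors NRF1 and NRF2 bind, was written TGACNNNGC. Of all 32851 promoters of this length 8.3% held GAS, 3.44% ISRE and 12.4% ARE. GAS matched in *Psmb8* and ISRE in *Psme1* and in no other member, whereas ARE matched in 3 of the 4 constitutive members with a sequence (*Psmb5*, *Psmb6* and *Psme4*) and in 0 of the 5 inducible ones. No matches to different motifs overlapped. The stretches below show some of these matches in capitals, beside the interferon-induced gene *Igtp*, whose level varied across libraries much like that of the inducible subunits. *Psmb9*, *Psmb10*, *Psme2* and *Psme3* held no match to any of the 3 motifs. *Tap1*, described below, was also searched and held none, though its level was nearer to that of the inducible catalytic subunits (r = 0.979) than that of *Igtp* (r = 0.970). *Smg9* (r = 0.990) and *Ap1g2* (r = 0.981), also described below, were nearer still, and their promoters were not searched. No promoter sequence was matched for *Iigp1* (r = 0.974). *Gbp2*, another interferon-induced gene searched, held 1 ISRE match. The *Psmb8* stretch (chr17:34198088-34198117, plus strand) and the *Psme1* stretch (chr14:55578493-55578522, plus strand, ISRE read on the minus strand) lie in annotated exons of those genes. The *Psmb5* (chr14:54618023-54618095, minus strand), *Psmb6* (chr11:70525257-70525356, plus strand) and *Igtp* (chr11:58199456-58199555, plus strand) stretches lie before any annotated exon. *Igtp* also held an ARE match outside the printed stretch, at -194 to -186 from its start.
Psmb8: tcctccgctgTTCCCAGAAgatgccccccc
Psme1: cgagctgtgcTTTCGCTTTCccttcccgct
Psmb5: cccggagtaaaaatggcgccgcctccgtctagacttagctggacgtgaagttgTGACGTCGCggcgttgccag
Psmb6: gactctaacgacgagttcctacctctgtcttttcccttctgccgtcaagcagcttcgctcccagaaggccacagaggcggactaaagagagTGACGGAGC
Igtp: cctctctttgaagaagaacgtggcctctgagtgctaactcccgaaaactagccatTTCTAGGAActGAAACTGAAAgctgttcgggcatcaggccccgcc
A match describes letters only, and binding at these stretches was not measured.

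The libraries held 32967451 to 39613703 reads in control and 44158619 to 60936697 in MaeaCsf1r-Cre, computed from the steps between low values, so that depth did not overlap between the groups. *Maea*, the targeted gene, was at 108, 116 and 123 CPM in the control and 76.9, 88.6 and 101 CPM in the MaeaCsf1r-Cre libraries, counted over the whole gene rather than over the floxed exons. All 8 HSC markers were detected, and *Kit*, the stem cell factor receptor, lay between 393 and 700.1 CPM. The summed level of 10 macrophage markers was 29.3 to 77.4 CPM in control and 8.25 to 42.9 CPM in MaeaCsf1r-Cre libraries, and 5 of the 8 tested were lower in every MaeaCsf1r-Cre library than in every control library (background 6.06%). *Ms4a1* and *Pax5* of B cells, *Cd3g*, *Cd8a* and *Ncr1* of T and NK cells, and *Siglech* and *Cd209a* of dendritic cells were at 0 in every library. Others of those lists were detected in all libraries, with *Cd79b* of B cells at 12.9 to 27.2 CPM, *Nkg7* of T and NK cells at 38.7 to 85.4 CPM, *Zbtb46* of dendritic cells at 14.2 to 41.0 CPM and *Flt3* of dendritic cells and progenitors at 15.7 to 120.5 CPM. Summed levels of the B cell list were 16.4 to 27.4 CPM in control and 13.1 to 24.2 CPM in MaeaCsf1r-Cre libraries, those of the T and NK cell list 40.7 to 65.4 and 40.7 to 85.6 CPM, and those of the dendritic cell list 55.2 to 140.5 and 48.4 to 59.2 CPM. The granulocyte and monocyte list summed to 76.2 to 308 CPM in control and 75.9 to 160.0 CPM in MaeaCsf1r-Cre libraries, and the megakaryocyte list to 284 to 1318 and 341 to 708 CPM. The erythroid list summed to 827 to 3870.0 CPM in control and 1630.5 to 4137 CPM in MaeaCsf1r-Cre libraries and was highest in replicate 1 of both groups. In such pools fewer cells of a type and less RNA per cell cannot be told apart.

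The 5 inducible genes had higher mean levels in MaeaCsf1r-Cre than in control HSCs, by 1.26 to 1.56-fold, and the 5 constitutive genes lay closer to control, at 1.01 to 1.13-fold. All 10 members were higher by their group means, as were 39.1% of all genes tested. Levels were compared on log2(CPM + 1) with limma, which understates the change of low genes, and p-values were adjusted by Benjamini-Hochberg over all genes tested. At an adjusted p under 0.05 limma called 0 of the 10 members, against 1 of 12955 genes (0.00772%), and at an unadjusted p under 0.05 it placed 3 inducible and 0 constitutive members higher (background 0.803% higher, 3.19% lower). The median log2 fold change was 0.45 over the inducible members, 0.08 over the constitutive members and -0.06 over all genes tested. Every MaeaCsf1r-Cre library exceeded every control library for 4 of the 5 inducible and 0 of the 5 constitutive members, against 2.49% of all genes. The difference between the lists was not tested, because their members were chosen with results of these libraries known.

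Among the inducible catalytic subunits, *Psmb8* (chromosome 17, 34197721 to 34201454 in GRCm38) codes for beta5i, which has chymotrypsin-like activity. Replicates 1, 2 and 3 held 319, 359 and 337 CPM among the controls, and 522, 448 and 350.0 CPM among the MaeaCsf1r-Cre libraries. Values are given in this order of replicates throughout. The third MaeaCsf1r-Cre library lay below the second control library, so that the groups overlapped. The log2 fold change was 0.36 (standard error 0.16, 95% interval -0.01 to 0.73, adjusted p = 0.967 from limma).

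*Psmb9* (chromosome 17, 34181987 to 34187764) codes for beta1i. It was at 122, 138 and 116 CPM in control and 202, 161 and 155 CPM in MaeaCsf1r-Cre HSCs. The groups did not overlap, and the log2 fold change was 0.45 (standard error 0.14, 95% interval 0.13 to 0.77, adjusted p = 0.967 from limma).

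*Psmb10* (chromosome 8, 105935735 to 105938444) codes for beta2i and showed the largest difference among the 10 members. Control libraries held 67.1, 96.0 and 81.2 CPM and MaeaCsf1r-Cre libraries 153, 114.5 and 114.5 CPM. All 3 MaeaCsf1r-Cre libraries lay above all controls, with a log2 fold change of 0.64 (standard error 0.18, 95% interval 0.23 to 1.05, adjusted p = 0.967 from limma).

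The genes of the PA28 alpha and beta ring lie next to each other on chromosome 14, with only *Emc9* tested between them. *Psme1* (55578123 to 55581529), which codes for PA28 alpha, was at 137, 194 and 182 CPM in control and 232, 210.0 and 205 CPM in MaeaCsf1r-Cre HSCs. The lowest MaeaCsf1r-Cre value exceeded the highest control value by a small margin, and the log2 fold change was 0.35 (standard error 0.15, 95% interval -0.00498 to 0.70, adjusted p = 0.967 from limma). *Psme2* (55587441 to 55591113), which codes for PA28 beta, was at 43.9, 46.0 and 47.7 CPM in control and 83.1, 56.5 and 61.8 CPM in MaeaCsf1r-Cre HSCs. Its controls lay close together and all below the other group, with a log2 fold change of 0.52 (standard error 0.16, 95% interval 0.14 to 0.90, adjusted p = 0.967 from limma).

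**Figure D1:**
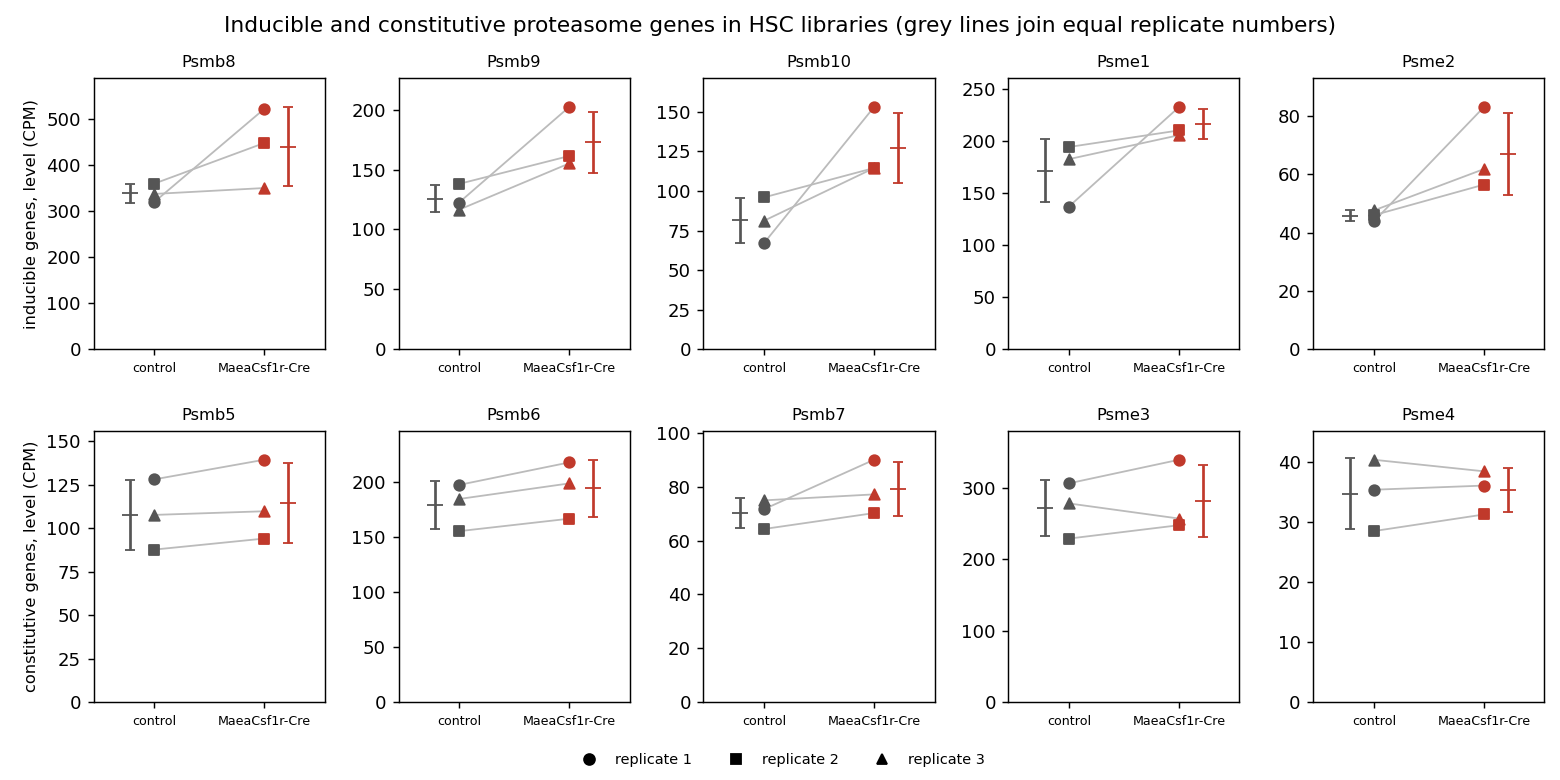
Level of each member in CPM (linear axis from 0) in the 3 control (dark grey) and 3 MaeaCsf1r-Cre (red) libraries, with symbols for replicate numbers, grey lines joining equal numbers, and bars for mean ± SD. In the upper row the red points lie above the grey ones for all but *Psmb8*, where 350.0 CPM falls below 359 CPM, and in the lower row the groups overlap in every panel.

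The value of *Psme2* is uncertain, because an intronless gene on chromosome 11, *Psme2b* (48945354 to 48946190), has nearly its sequence. Its transcript shared 789 of 794 aligned bases with the longest coding *Psme2* transcript (99.4%). *Psme2b* was listed at 90.6, 96.5 and 93.0 CPM in control and 168, 112 and 124 CPM in MaeaCsf1r-Cre libraries, a log2 fold change of 0.50. Its ratio to *Psme2* lay between 1.95 and 2.10 in control and between 1.98 and 2.02 in MaeaCsf1r-Cre libraries, so that both rows kept nearly the same ratio. Only 1 of the 6 *Psme2* values was a whole number of reads within 0.05, compared with 63.3 to 69.5% of all values between 10 and 100 CPM. This was not particular to *Psme2*. Among members all or mostly in that range, of 6 values each, 0 were whole for *Psmb6* and *Psmb8*, and 1 for *Psmb5*, *Psmb9*, *Psme1* and *Psme3*. For *Psme2b* 2 were whole, and for *Psmb10* and *Psme4* all 6 were. How the reads were divided between *Psme2* and *Psme2b* was not tested.

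Of the constitutive subunits, *Psmb5* on chromosome 14 codes for beta5, the subunit that beta5i replaces. It was at 128, 87.7 and 108 CPM in control and 139, 94.0 and 109.7 CPM in MaeaCsf1r-Cre HSCs. Same-numbered libraries lay close together while numbers 1 and 2 stood apart in both groups, and the log2 fold change was 0.08 (95% interval -0.36 to 0.52). *Psmb6* on chromosome 11 codes for beta1 and was at 198, 156 and 185 CPM in control and 218, 167 and 199 CPM in MaeaCsf1r-Cre HSCs, a log2 fold change of 0.12 (95% interval -0.22 to 0.45). *Psmb7* on chromosome 2 codes for beta2 and was at 71.7, 64.3 and 75.0 CPM in control and 90.1, 70.2 and 77.2 CPM in MaeaCsf1r-Cre HSCs, a log2 fold change of 0.16 (95% interval -0.15 to 0.48). In all 3 genes replicate 1 was the highest and replicate 2 the lowest of the MaeaCsf1r-Cre libraries. *Psmb7* shares 405 exon bases with *Nek6* on the opposite strand, and the library kit does not mark strand, so reads from those bases cannot be assigned to either gene.

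*Psme3* on chromosome 11 codes for PA28 gamma, the nuclear relative of the inducible ring. It was at 307, 229 and 279 CPM in control and 339.9, 248 and 257 CPM in MaeaCsf1r-Cre HSCs, a log2 fold change of 0.05 (95% interval -0.34 to 0.43). *Psme4*, which codes for PA200, was the lowest of the members, at 35.4, 28.5 and 40.4 CPM in control and 36.1, 31.3 and 38.5 CPM in MaeaCsf1r-Cre HSCs, with a log2 fold change of 0.03 (95% interval -0.36 to 0.42). In both genes the third MaeaCsf1r-Cre library lay below the third control library. The intervals of the 5 constitutive genes include 0 and also the differences of *Psmb8* and *Psme1*.

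The replicate numbers of the labels were treated as pairs, since same-numbered libraries deviated together across genes. Each inducible gene was higher in 3 of 3 pairs, as were *Psmb5*, *Psmb6* and *Psmb7*, against 13.2% of all genes. With the pairs as a block in limma, the 5 inducible genes had an unadjusted p between 0.00486 and 0.0368 (background 3.11% higher, 10.8% lower), and their adjusted p lay between 0.221 and 0.331. None of the constitutive genes reached an unadjusted p of 0.05 with the block, and their adjusted p lay between 0.501 and 0.927. The 95% intervals with the block ended at 0.29 for *Psmb5*, 0.31 for *Psmb6*, 0.27 for *Psme3* and 0.29 for *Psme4*, below the point estimates of the 5 inducible genes, and at 0.40 for *Psmb7*. Those of the inducible genes began at 0.03 for *Psme1*, 0.05 for *Psmb8*, 0.19 for *Psmb9* and *Psme2*, and 0.24 for *Psmb10*. The intervals of the 2 kinds thus overlapped. The first MaeaCsf1r-Cre library was the highest of the 6 for all 5 inducible genes and for *Psmb5*, *Psmb6*, *Psmb7* and *Psme3*, and it was also the deepest. Without it the log2 fold change was 0.23 for *Psmb8*, 0.33 for *Psmb9*, 0.50 for *Psmb10*, 0.29 for *Psme1* and 0.36 for *Psme2*. The same 4 inducible genes still had no overlap between the groups, against 4.27% of all genes higher without overlap in those 5 libraries. *Psmb5* and *Psme3* then lay below control, at -0.068 and -0.093.

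**Figure D2:**
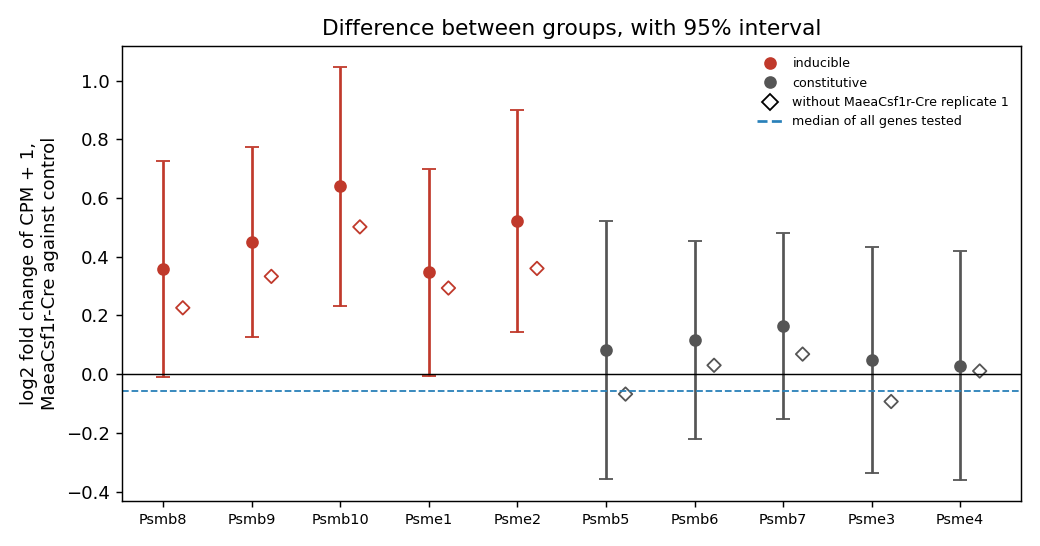
Log2 fold change of CPM + 1 for each member, MaeaCsf1r-Cre against control (filled circles, with 95% interval from limma), the same without MaeaCsf1r-Cre replicate 1 (open diamonds), and the median of all genes tested (dashed line, -0.06). Inducible genes (red) lie between 0.35 and 0.64 and constitutive genes (grey) between 0.03 and 0.16, and intervals of both kinds are wide against these values.

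A ratio of 2 genes within a library does not depend on how the library was scaled, and each inducible subunit was set against the subunit it replaces. The CPM ratio of *Psmb8* to *Psmb5* was 2.49, 4.10 and 3.13 in control and 3.74, 4.76 and 3.19 in MaeaCsf1r-Cre libraries. That of *Psmb9* to *Psmb6* was 0.619, 0.887 and 0.630 in control and 0.927, 0.966 and 0.779 in MaeaCsf1r-Cre libraries. That of *Psmb10* to *Psmb7* was 0.935, 1.49 and 1.08 in control and 1.70, 1.63 and 1.48 in MaeaCsf1r-Cre libraries. All 3 ratios were higher in each MaeaCsf1r-Cre library than in the control library of the same number, and all 3 overlapped between the groups, because the second control library had a high ratio in each. On the log2 scale the mean differences were 0.28, 0.34 and 0.48, with SDs of 0.36, 0.29 and 0.34 among the controls. Only the difference of *Psmb10* to *Psmb7* and that of *Psmb9* to *Psmb6* exceeded the SD among controls. Without the first control library the 3 differences were 0.10, 0.25 and 0.33, and without the second they were 0.46, 0.51 and 0.67. That of *Psmb8* to *Psmb5* was 0.12 without the second MaeaCsf1r-Cre library.

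For the activators, the CPM ratio of *Psme1* to *Psme3* was 0.446, 0.847 and 0.655 in control and 0.684, 0.847 and 0.798 in MaeaCsf1r-Cre libraries. The second pair did not differ, and without the first control library the mean log2 difference of 0.30 became 0.05, and without the second 0.52. That of *Psme2* to *Psme3* was 0.143, 0.201 and 0.171 in control and 0.245, 0.228 and 0.240 in MaeaCsf1r-Cre libraries. It was the only 1 of the 5 ratios without overlap between the groups, with a mean log2 difference of 0.48, and it rests on the *Psme2* value that *Psme2b* may share. No p is given for these ratios, as the pairs were chosen with results known.

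**Figure D3:**
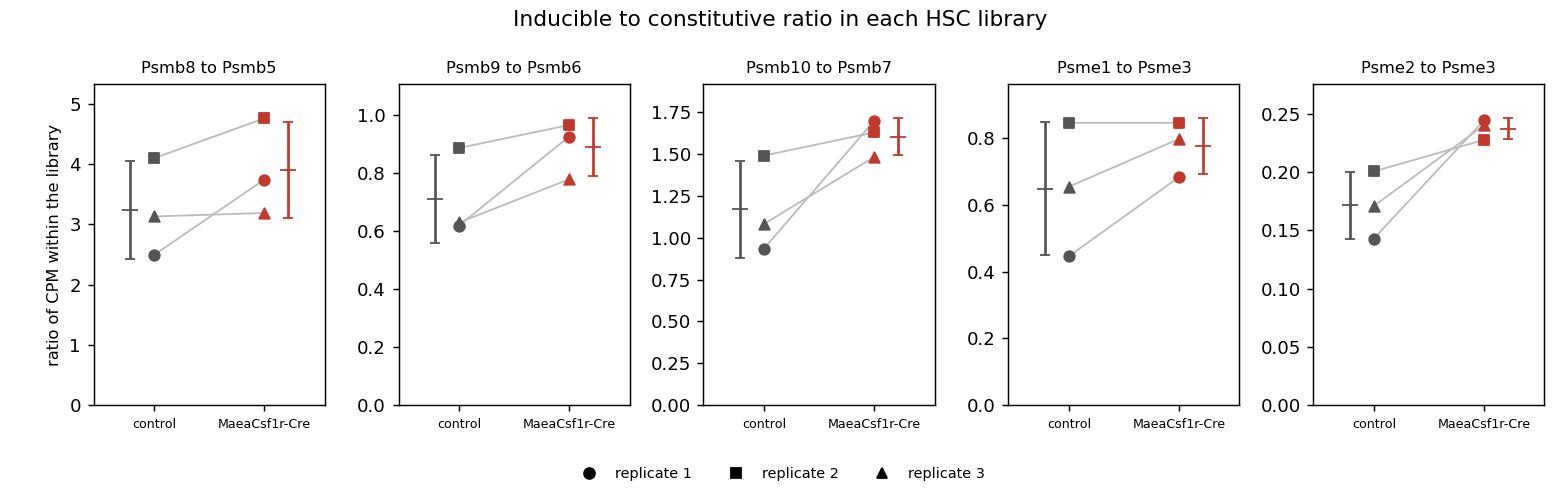
Ratio of CPM within each library for the 5 pairs of an inducible and a constitutive gene (linear axis from 0), with symbols for replicate numbers, grey lines joining equal numbers, and bars for mean ± SD of the 3 libraries. The red points lie above the grey ones without overlap for *Psme2* to *Psme3* alone, where they span 0.228 to 0.245 against 0.143 to 0.201.

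Summed over the members, the inducible genes took 689.7, 834 and 765 CPM in control and 1192, 990.0 and 887 CPM in MaeaCsf1r-Cre libraries, and the constitutive genes 739.7, 565 and 686 CPM against 824, 611 and 682 CPM. The inducible sum exceeded the constitutive sum in 2 of the 3 control libraries and in all 3 MaeaCsf1r-Cre libraries. Levels of different genes can be set side by side only per length, and the order depended on the length used. Per kb of all annotated exons, control HSCs held 100.2 ± 5.94 CPM of *Psmb8* and 119.9 ± 22.5 CPM of *Psmb5*, and per kb of the longest coding transcript 208 ± 12.3 and 119.9 ± 22.5 CPM (SD, n = 3 each). *Psmb9* lay below *Psmb6* on both scales, at 34.3 ± 3.04 against 95.8 ± 11.5 CPM per kb of exons and 92.9 ± 8.23 against 225 ± 27.1 CPM per kb of coding transcript (SD, n = 3 each). *Psmb10* stood above *Psmb7* per kb of exons, at 47.7 ± 8.47 against 20.6 ± 1.59 CPM, but the pair did not differ beyond its spread per kb of coding transcript, at 62.1 ± 11.0 against 60.6 ± 4.70 CPM (SD, n = 3 each).

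Across the 6 libraries the members were mostly correlated more closely within a kind than between kinds, but the ranges overlapped. Pearson's r of log2(CPM + 1) was 0.91 for *Psmb8* with *Psmb9*, 0.95 for *Psmb9* with *Psmb10* and 0.94 for *Psmb10* with *Psme1*, and it was 0.95 for *Psmb5* with *Psmb6* and 0.97 for *Psmb5* with *Psme3*. It was lower among the constitutive genes for *Psme4*, at 0.55 with *Psme3* and 0.63 with *Psmb7*. Between the kinds it was 0.23 for *Psmb8* with *Psmb5*, 0.37 for *Psmb9* with *Psmb6* and 0.60 for *Psmb10* with *Psmb7*, and at the highest 0.85 for *Psme2* with *Psmb7*. These values describe 6 libraries that share the group difference and the replicate numbers. Of 9298 genes that reached a CPM of 10 in 3 libraries or more, the non-members most like the mean of *Psmb8*, *Psmb9* and *Psmb10* were *Smg9* (r = 0.99), *Ap1g2* (0.98), *Tap1* (0.98), *Iigp1* (0.97) and *Igtp* (0.97). *Tap1* is 1 chain of the pump that carries peptides to class I molecules, and *Iigp1* and *Igtp* are GTPases induced by interferon. The genes most like the mean of *Psmb5*, *Psmb6* and *Psmb7* were *Erh*, *Mrpl21*, *Eme1*, *Ppib* and *Cox7c* (r of 0.996 to 0.999).

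*Psmb8* and *Psmb9* lie in the class II region of the major histocompatibility complex with *Tap1* between them. *Tap1* was at 183, 215 and 180.5 CPM in control and 278, 240.2 and 235 CPM in MaeaCsf1r-Cre HSCs, with no overlap and a log2 fold change of 0.38 (adjusted p = 0.967 from limma). The ratio of *Psmb9* to *Tap1*, whose annotated exons share 212 bases on opposite strands, was 0.653 ± 0.0157 in control and 0.687 ± 0.0358 in MaeaCsf1r-Cre libraries (SD, n = 3 each). Of the 20 neighbours examined around the inducible genes, *Tap1*, *Tap2* and *Gm20496* were higher without overlap, against 2.49% of all genes, and all 3 lie beside *Psmb8* and *Psmb9*. *Gm20496* is an antisense gene at 0.633 to 2.09 CPM that shares 498 exon bases with *Psmb8*, and the kit does not separate its reads from those of *Psmb8*. *H2-DMb2*, which codes for a chain of the class II peptide exchange molecule, was at 1.49, 3.02 and 1.91 CPM in control and 13.4, 18.8 and 2.70 CPM in MaeaCsf1r-Cre libraries, with overlap and a log2 fold change of 1.73. Whether the MaeaCsf1r-Cre and control mice carried the same alleles of this region was not tested. *Psmb10* and the *Psme1* and *Psme2* pair lie on other chromosomes, and their neighbours had log2 fold changes of -0.14 to 0.34, each with overlapping groups.

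**Figure D4:**
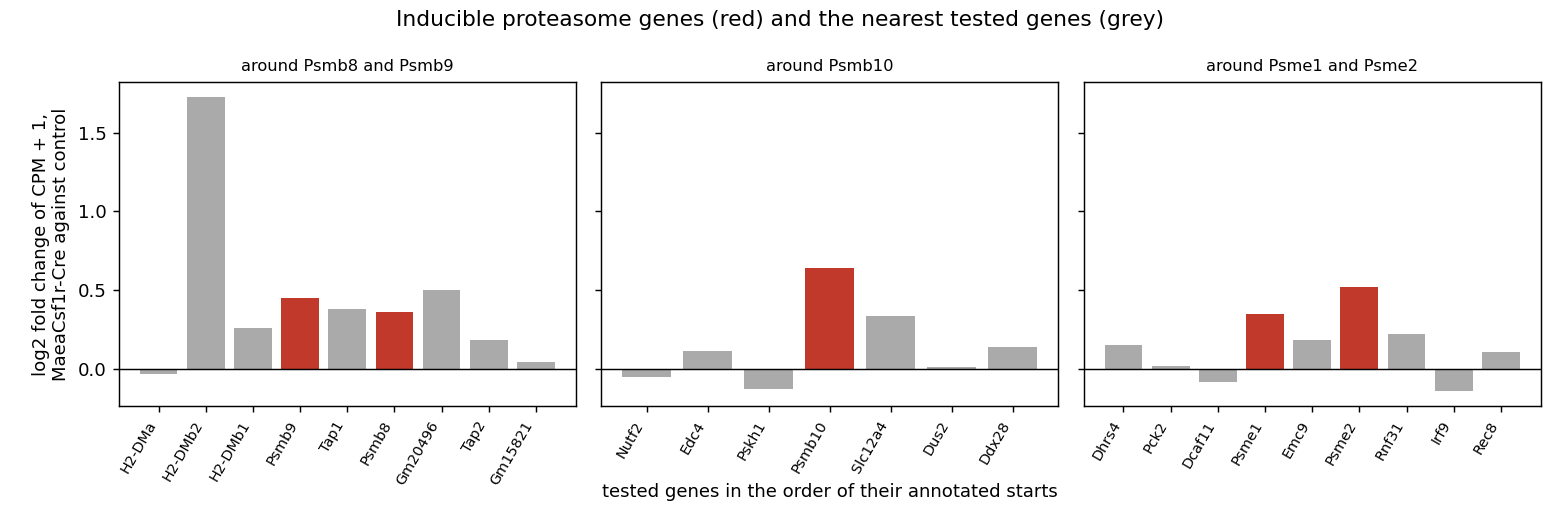
Log2 fold change of CPM + 1, MaeaCsf1r-Cre against control, for the inducible members (red) and their nearest tested genes (grey), ordered by annotated start. Around *Psmb10* (0.64) and *Psme1* and *Psme2* (0.35 and 0.52) the members stand above their neighbours, whereas around *Psmb8* and *Psmb9* (0.36 and 0.45) *H2-DMb2* reaches 1.73 and *Gm20496* 0.50.

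The rest of the proteasome was counted in 3 lists. Of the 11 remaining 20S subunits, which build the barrel, limma called 0, 1 was higher without overlap (background 2.49%) and the median log2 fold change was 0.13. This was *Psmb4* of the beta ring, at 72.1, 61.5 and 82.5 CPM in control and 92.1, 87.5 and 86.3 CPM in MaeaCsf1r-Cre libraries. Of the 18 subunits of the 19S cap, which recognises and unfolds ubiquitinated proteins, 0 were called, 0 were free of overlap, and the median was 0.11. The 8 assembly factors tested had 0 calls and a median of 0.18. Among them *Pomp*, the chaperone that completes the core, was at 97.0, 99.4 and 96.5 CPM in control and 135, 103 and 114 CPM in MaeaCsf1r-Cre HSCs, again without overlap (background 2.49%). Without the first MaeaCsf1r-Cre library the medians of the 20S, 19S and assembly lists were 0.014, -0.015 and 0.045. No gene of these 3 lists had an unadjusted p under 0.05 in limma without the block. With the replicate block, *Psmb4* (unadjusted p = 0.028) and *Psmd13* of the 19S cap (unadjusted p = 0.046) did (background 3.11% higher). *Psmb11* of the thymus was at 0 in all libraries, and the 6 genes listed for NRF1 and NRF2, their processing and the proteasome regulator PI31 had a median of 0.00422 with 0 calls.

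Beyond the proteasome, the 12 class I processing genes had a median log2 fold change of 0.21, with 0 called by limma, 4 higher at an unadjusted p under 0.05 (background 0.803%) and 3 higher without overlap (background 2.49%), namely *Tap1*, *Tap2* and *H2-D1*. *H2-D1*, a class I heavy chain, was at 1764, 1933 and 1956 CPM in control and 2836, 2918 and 1978 CPM in MaeaCsf1r-Cre libraries. *Tapbpl* and *Tapbp*, which help load peptides, had log2 fold changes of 0.67 and 0.41 with overlapping groups. The common light chain *B2m* and the heavy chain *H2-K1* each had a log2 fold change of 0.04.

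The 16 genes of interferon and NF-kB signalling had a median of -0.03, with 0 called by limma. Of the 13 interferon-induced genes tested (of 14 listed), 0 were called and the median was 0.25. The list was split in direction, with 7 genes higher and 6 lower by their group means (39.1% of all genes tested were higher). Without overlap 5 were higher (background 2.49%) and 1 was lower (background 6.06%), and without the first MaeaCsf1r-Cre library 6 were higher (background 4.27%). *Igtp*, whose promoter is printed above, was at 88.5, 132 and 68.1 CPM in control and 465, 192 and 175 CPM in MaeaCsf1r-Cre libraries. *Iigp1* was at 44.9, 101 and 57.0 CPM in control and 354, 117 and 131 CPM in MaeaCsf1r-Cre libraries. In both genes the first MaeaCsf1r-Cre library stood far above the rest, and without it the log2 fold changes of *Igtp* and *Iigp1* were 0.98 and 0.95 in place of 1.42 and 1.45. *Ifit1*, an antiviral gene typical of type I interferon, was lower in every MaeaCsf1r-Cre library, at 7.76, 12.4 and 14.8 CPM in control and 2.31, 3.84 and 7.08 CPM in MaeaCsf1r-Cre HSCs. The part of interferon genes, of RNA from macrophages, erythroid and other cells, and of depth in the levels of the inducible subunits was not tested.

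**Figure D5:**
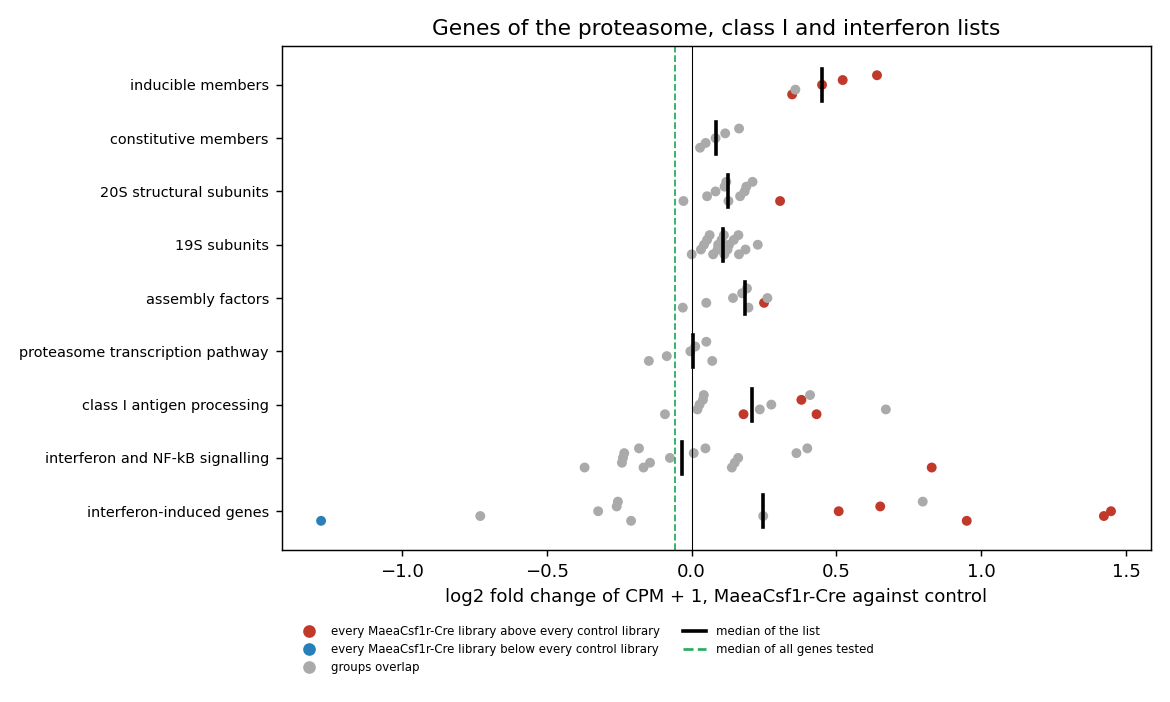
Log2 fold change of CPM + 1, MaeaCsf1r-Cre against control, for each tested gene of 9 lists (points), with the list medians (black bars) and the median of all genes tested (dashed line). Red points, higher in every MaeaCsf1r-Cre library, make up 4 of the 5 inducible members and 0 of the 5 constitutive members, and the interferon-induced genes range from -1.28 for *Ifit1* to 1.45 for *Iigp1*.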

How the data were processed

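RNA of sorted HSCs was measured in 3 control and 3 MaeaCsf1r-Cre libraries. The authors made cDNA with SMART-Seq v4 and libraries with Nextera XT, and, per the submitters' processing notes and the methods, used Trim Galore, STAR 2.5.3a, mm10 and Ensembl transcripts with Partek Flow. The deposited values are CPM per gene symbol with an offset of 0.0001, which was subtracted. They are not read counts, and no test for counts was used. Listed genes took 75.2 to 80.2% of each library's total. A signal of 3 reads was 0.0492 to 0.0910 CPM, for counting error only. Gene positions are from GENCODE M21 (GRCm38), which matched 44119 symbols.

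Genes that reached a CPM of 1 in 3 libraries or more were fitted on log2(CPM + 1) with limma 3.58.1 (R 4.3.3), two-sided, with a mean-variance trend, Benjamini-Hochberg adjustment and a threshold of 0.05, after testing on simulated data. Each library was pooled from 2 mice, so that p-values measure the spread between pools. The labels do not say what a replicate number shares. Deviations from the group means correlated across genes for same-numbered libraries (r = 0.627, 0.523 and 0.397), so the number was also fitted as a block. The values for other numbers (-0.459 to -0.0538) are no separate evidence, because deviations cancel within each group by construction. Tables were handled in Python 3.11.15 with pandas 2.3.3, numpy 2.4.6, Biopython 1.88 and matplotlib 3.10.9.

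The members and lists were chosen with earlier results of these data known. Named genes were the members, up to 3 genes a list with the smallest p, the 3 nearest tested genes on each side of the inducible genes, the 5 non-members most like each catalytic trio, and *Maea*. *Psme2b*, *Nek6*, *Gm12185*, *9930111J21Rik1*, *Gbp2*, *H2-D1*, *H2-K1*, *B2m*, *Cd209f* and the markers were named after their values were seen. Values of 1 gene of the signalling list are not reported here. Alternatives were 0.1 as the pseudocount, filtering at a CPM of 10 or not at all, median-ratio and quantile scaling, no trend, loess correction for length or GC content (span 0.5), the block with and without length correction, and each library left out in turn. Summing *Psme2* with *Psme2b*, and the interferon list without MaeaCsf1r-Cre replicate 1, were added after seeing the data.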

Additional observations from a re-analysis of the deposited data

How the results depend on the processing

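No member passed an adjusted p of 0.05 in limma under any of the 16 alternatives. All 5 inducible genes kept a positive log2 fold change, from 0.20 at the lowest (*Psme1* without control replicate 1) to 0.77 at the highest (*Psmb10* without control replicate 2). The number of genes called over the whole table was 1, became 0 with a filter at a CPM of 10 (302 at an unadjusted p under 0.05) and 12 with the replicate block and length correction, and ranged from 0 to 3 when 1 library was left out (0 without control replicate 2 or 3, and 3 without MaeaCsf1r-Cre replicate 3). The cause was not tested. With no filter the 1 gene called was another, *Cd209f*. With the replicate block alone 1 gene and 0 members were called, so no call changed. Leaving out 1 library turned the direction of 3 constitutive genes, with ranges of -0.068 to 0.21 for *Psmb5*, -0.093 to 0.14 for *Psme3* and -0.10 to 0.14 for *Psme4*. The median of the constitutive members ranged from -0.06 to 0.21 and that of the inducible members from 0.33 to 0.52. At an unadjusted p under 0.05, 104 genes were higher and 413 lower, against 219 and 301 after quantile normalization, 179 and 341 after median-ratio scaling and 176 and 252 after length correction. With 3 libraries a group, the intervals of the 5 constitutive members are wider than their differences.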

Other observations

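*Smg9*, a subunit of the nonsense-mediated decay kinase complex and the gene whose level most resembled the mean of *Psmb8*, *Psmb9* and *Psmb10*, was at 21.1, 24.3 and 23.2 CPM in control and 31.5, 27.9 and 26.4 CPM in MaeaCsf1r-Cre HSCs, with no overlap and a log2 fold change of 0.31. *Ap1g2*, an adaptor subunit of vesicle transport, was at 33.05, 35.3 and 32.5 CPM in control and 41.1, 36.9 and 35.8 CPM in MaeaCsf1r-Cre HSCs, a log2 fold change of 0.17 with no overlap. Neither passed an adjusted p of 0.05 in limma.

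*Psma8*, the core subunit of the testis, was listed in every library, at 8.56 to 11.98 CPM in control and 8.96 to 10.2 CPM in MaeaCsf1r-Cre HSCs, with a log2 fold change of -0.03. *Gm12185*, whose span on chromosome 11 holds that of *Psme2b*, was at 15.1, 18.4 and 11.2 CPM in control and 59.0, 27.7 and 25.0 CPM in MaeaCsf1r-Cre libraries, with no overlap. It shares 0 exon bases with *Psme2b*. *9930111J21Rik1*, which shares 41, went the other way without overlap. Its levels were 8.06, 8.18 and 7.35 CPM in control and 2.51, 5.28 and 4.61 CPM in MaeaCsf1r-Cre libraries.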
